A study of Mus musculus with 3 samples.

Results

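The Hoxb cluster is a run of 10 homeobox genes on mouse chromosome 11, from Hoxb13 at the low-coordinate end to Hoxb1 at the high-coordinate end. All 10 were described here, out of 21887 protein-coding genes. Their accessible chromatin was taken as every listed ATAC-seq region between 10 kb before the span of Hoxb13 and 10 kb after that of Hoxb1, chr11:96184316-96378254 in mm10. Each region was counted once, for the nearest of the 10 genes. The window of 193.9 kb held 47 of 182233 regions in the 0 h library, 42 of 178055 in the 6 h library and 26 of 145044 in the 72 h library. ATAC-seq uses a transposase to cut and tag open DNA, so a listed region is a stretch where many tagged fragments stacked up. All 3 libraries came from the Ecomg myeloid progenitor line, which was kept in GM-CSF and β-estradiol throughout and carries the genotype FKBP12F36V_NIPBL. That degron tag lets the small molecule dTAG send NIPBL, the cohesin loader, for breakdown. One library was taken at 0 h without dTAG, one at 6 h with dTAG and one at 72 h with dTAG, each from 50000 cells. Each group is 1 library, so differences between times have no replicates behind them and none was tested. No untreated library at 6 h or 72 h was analysed here, so dTAG, time in culture and library cannot be told apart.

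Hox genes encode homeodomain transcription factors that give cells their position along the body axis, and their order on the chromosome follows the order of their expression domains from head to tail. In blood, genes of the Hoxb cluster are used in stem and progenitor cells and are turned down as cells mature, and Hoxb8 kept active can hold myeloid progenitors in an immature state. The clusters are classic targets of Polycomb repression and trithorax activation, and CTCF and cohesin set their domain boundaries. The genes of the cluster are transcribed in the same direction, towards Hoxb1.

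Sequences around the annotated start (250 bases before, 50 after) were at hand for 3 of the 10 members, from RefSeq on GRCm38.p6, the assembly of mm10. They are shown because they mark annotated starts that can be set against the listed regions. They are Hoxb8 at chr11:96281655-96281954, Hoxb4 at chr11:96318017-96318316 and Hoxb1 at chr11:96365508-96365807, all on the plus strand. Capitals mark matches to the motifs named afterwards.
Hoxb8: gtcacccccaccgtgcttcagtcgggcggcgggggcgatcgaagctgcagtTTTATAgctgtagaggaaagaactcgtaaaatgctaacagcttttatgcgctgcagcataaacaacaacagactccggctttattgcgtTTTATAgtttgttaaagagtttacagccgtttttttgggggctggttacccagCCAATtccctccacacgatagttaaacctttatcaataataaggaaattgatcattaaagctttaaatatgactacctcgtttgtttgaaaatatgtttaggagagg
Hoxb4: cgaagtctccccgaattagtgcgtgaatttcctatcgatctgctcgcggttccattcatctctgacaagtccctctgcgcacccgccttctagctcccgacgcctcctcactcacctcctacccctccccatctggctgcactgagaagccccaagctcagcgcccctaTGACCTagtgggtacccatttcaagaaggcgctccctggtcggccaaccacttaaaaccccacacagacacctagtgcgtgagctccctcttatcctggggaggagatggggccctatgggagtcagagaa
Hoxb1: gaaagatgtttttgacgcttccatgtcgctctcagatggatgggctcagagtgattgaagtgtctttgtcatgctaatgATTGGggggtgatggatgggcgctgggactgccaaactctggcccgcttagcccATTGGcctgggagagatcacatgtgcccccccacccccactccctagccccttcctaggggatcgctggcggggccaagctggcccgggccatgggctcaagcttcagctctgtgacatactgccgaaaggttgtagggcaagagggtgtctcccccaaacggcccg
None of the 3 windows was overlapped by a region in any library. Of 21263 such windows, held for 17492 protein-coding genes, 54.3%, 54.4% and 51.5% were overlapped in order of time. The region nearest to the Hoxb4 start began 267 bp after it at 0 h, 273 bp at 6 h and 272 bp at 72 h, inside the gene. For Hoxb8 the nearest lay 1132, 2624 and 2665 bp away, and for Hoxb1 3565, 3619 and 3576 bp. The 3 starts shown thus lay outside the listed regions. The RefSeq span of Hoxb8 begins further upstream, at 96279401, and a tall region described later lies just before that end.

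The windows were searched on both strands for 9 motifs: TGATTNAT (HOX with PBX), TGACAG (MEIS), AGGTCA (a nuclear receptor site), CCAAT (NFY, a factor of many promoters), TATAAA (the core promoter box), CCGGAAG (ETS factors), TGTGGT (RUNX), TTGCNNAA (C/EBP) and GGNGGCAG (part of the CTCF site). No match overlapped another in these windows. Hoxb8 held CCAAT once and TATAAA at 2 places on the minus strand, Hoxb1 held CCAAT at 2 places on the minus strand, and Hoxb4 held AGGTCA once on the minus strand. Of 32851 windows of the same length, 37.4% held CCAAT, 16.3% AGGTCA and 13.6% TATAAA. The letters of the other 6 motifs were not in these 3 windows, and they were in 3.22% (TGATTNAT), 19.2% (TGACAG), 8.86% (CCGGAAG), 16.8% (TGTGGT), 10.8% (TTGCNNAA) and 12.6% (GGNGGCAG) of all windows. The GC content was 42.3% for Hoxb8, 58% for Hoxb4 and 59.3% for Hoxb1, beside a median of 52.7% over all windows.

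A pair of microRNA genes lies within the cluster, Mir196a-1 between Hoxb13 and Hoxb9 and Mir10a inside the Hoxb3 span. Their positions help to place the regions that follow. Mature strands are shown 5′ to 3′ with the seed, bases 2 to 8, in capitals.
mmu-miR-196a-5p: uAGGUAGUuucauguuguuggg
mmu-miR-10a-5p: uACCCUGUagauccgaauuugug
Mir196a-1 (hairpin chr11:96265164-96265265), upstream of Hoxb9, encodes a microRNA known to target Hoxb8. The nearest region lay 575 bp from its hairpin at 0 h and 612 bp at 6 h, with folds of 6.05 and 5.27, and 3353 bp away at 72 h. Mir10a (hairpin chr11:96317165-96317274), upstream of Hoxb4, had a region 379 bp downstream at 0 h and 6 h and 384 bp downstream at 72 h, with folds of 5.29, 3.77 and 5.46. Mir10a thus kept its nearest region through 72 h, while the one next to Mir196a-1 was not listed then.

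Each deposited region carries a fold, the ratio of its summit to the library's background after 1 is added to each, and −log10 values of p and q. The fold and the deposited −log10 p both follow from a whole number of fragments stacked at the summit and 1 background per library, so summit heights are given here as stacked fragments. The backgrounds were 0.323, 0.327 and 0.281 fragments in order of time. Those of 6 h and 72 h are 1.01 and 0.870 times that of 0 h, which stands for relative depth. The lowest listed summit was 3 fragments in every library. A place without a region can therefore hold signal below that height, and fewer cells with an open site cannot be told apart from less opening per cell. A region is called strong when its −log10 q is at or above the median of its list, which at 0 h took in summits of 8 fragments and left out those of 7. Of 12 markers of myeloid progenitors, 11 had a region within 1 kb of a gene end at 0 h, 11 at 6 h and 10 at 72 h, and Kit, the stem cell factor receptor, was the one that had none at 72 h after having one before. Of 14 markers of mature neutrophils the numbers were 10, 10 and 13. Regions within 10 kb of each of these genes summed to 99, 110 and 145. The windows of Fpr1 (7, 6 and 14 regions) and Fpr2 (4, 4 and 12) overlap, so regions they share were counted for both. Erythroid markers stood at 3, 3 and 3 of 7, and lymphoid ones at 5, 5 and 5 of 8. Mast cell ones stood at 2, 3 and 1 of 6 and non-blood ones at 5, 4 and 3 of 8. End regions were thus also listed at markers of other cell types. Over all protein-coding genes the shares were 64.2%, 63.8% and 59.1% in order of time. Of all genes 6.2% had an end region at 0 h but not at 72 h, and 1.18% the reverse. The 3 neutrophil markers with an end region at 72 h alone were Mmp9, Fpr1 and Fpr2. Whether the shift of neutrophil markers or the lower depth at 72 h bears on the Hoxb values was not tested.

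Across the Hoxb window, accessible sites were many, short and mostly low. At 0 h there were 24.2 regions per 100 kb, beside 6.85 over the genome, and at 72 h 13.4 beside 5.46. The genome values are means over whole chromosomes, stretches without genes included, so they do not place the window among gene loci. In order of time the Hoxb regions covered 6085, 6224 and 3742 bp. Median length was 98 bp, 107.5 bp and 122.5 bp, the longest region measured 420 bp, and no broad region of several kilobases was listed. The median summits were 6, 7 and 9.5 fragments, below the 8, 9 and 11 of the whole lists. The highest summits were 72, 55 and 49 fragments, folds of 55.2, 42.2 and 39.0, all at the same place inside Hoxb3. Regions at 72 h numbered 55.3% of those at 0 h, where the whole list stood at 79.6%. At a fold of at least 10 there were 10, 11 and 12 regions, beside 66637, 69502 and 71819 in the whole lists. They covered 2226, 2392 and 2495 bp. Regions of 12 fragments fell just short of that fold at 0 h (9.83) and 6 h (9.80). With a −log10 q of at least 10 there were 14, 13 and 13 regions. The difference in number thus lay in low regions.

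**Figure D1:**
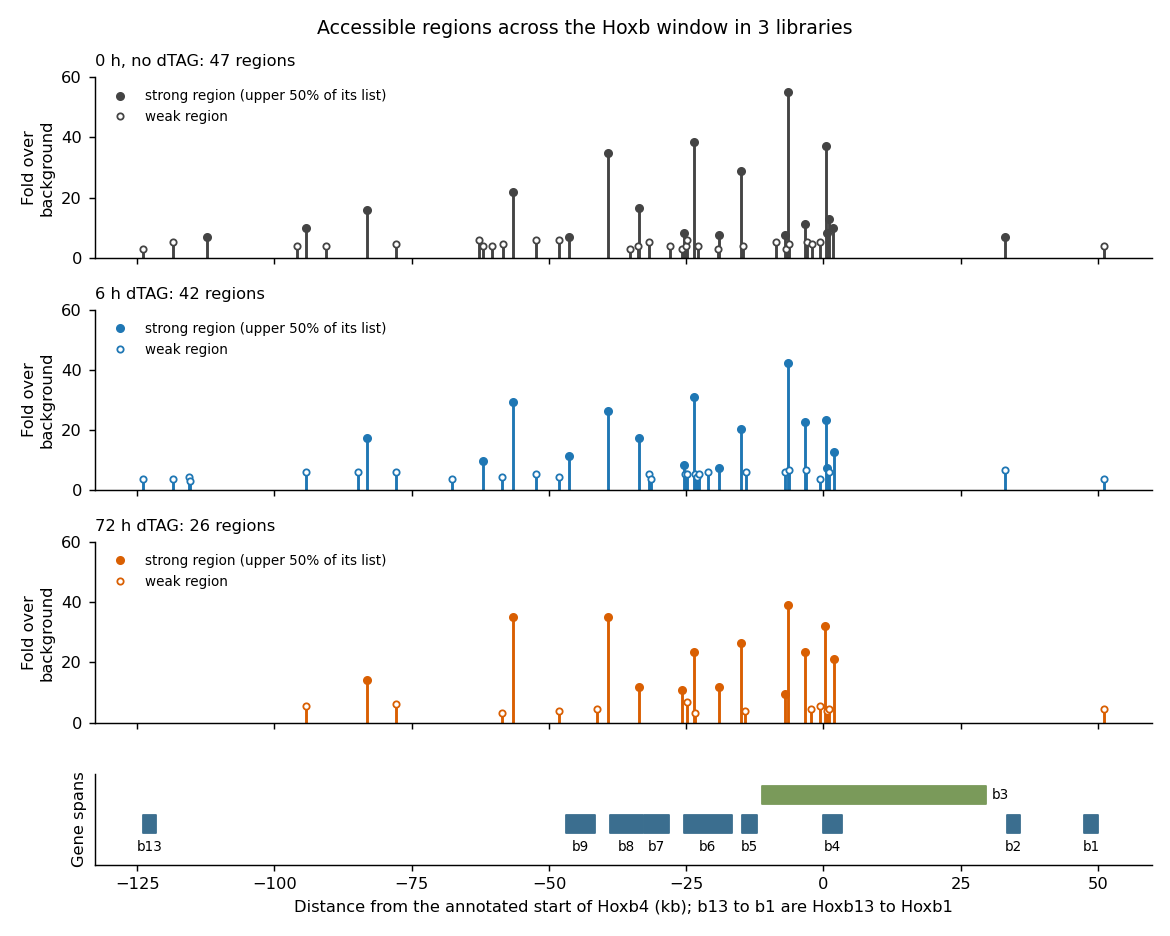
Regions of the Hoxb window by distance of the summit from the annotated start of Hoxb4 (horizontal, kb) and fold over background (vertical), 1 panel per library with 47, 42 and 26 regions, filled for strong and open for weak. Gene spans are drawn at the bottom, Hoxb3 above the others because it overlaps Hoxb4, and the tall regions between Hoxb9 and Hoxb4 recur in all 3 panels while few regions lie to the right of Hoxb4.

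Regions were spread unevenly along the cluster. They were dense from Hoxb9 to Hoxb4 and sparse on the Hoxb1 side, where no region of any library lay between 96320291 and 96351259. That gap of 30969 bp takes in most of the Hoxb3 span (chr11:96307101-96347930), the far end of Hoxb4 and part of the lncRNA Hoxb3os. At 72 h, with no region at Hoxb2, the gap was 49043 bp. The next gap over all 3 libraries, 17867 bp, held Hoxb2, Hoxb1 and the end of Hoxb3os, and the next, 16176 bp, held no annotated gene and lay between Hoxb13 and Hoxb9. At the edges of the window, the outermost region on the Hoxb13 side ended 12 bp before Hoxb13 at 0 h (3 fragments), and the next one outward, not counted, lay 17.4 kb away with 4 fragments. On the Hoxb1 side the last one counted lay 1.07 kb from Hoxb1 with 4 fragments and the first one not counted 15.4 kb away with 9 fragments.

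Hoxb3, which acts in blood stem and progenitor cells, held the tallest site of the cluster in each library. Hoxb4, which lies inside the Hoxb3 span, kept all sites assigned to it. Hoxb3 was nearest to 9, 6 and 5 regions in order of time, all inside its span. Its leading region, at 96311628 to 96311886 at 0 h, stacked 72 fragments (95% Poisson interval 56.3 to 90.7), then 55 (41.4 to 71.6) after 6 h and 49 (36.3 to 64.8) after 72 h. The intervals of all 3 values overlap, and like every interval here they cover counting error only. A second Hoxb3 site, between the leading one and Hoxb4 at 96314772 to 96315191, had its values in another order, with 14 fragments (7.65 to 23.5), 29 (19.4 to 41.6) and 29 (19.4 to 41.6) in order of time. At 6 h this stretch was listed as a pair of regions, the other with 8 fragments. The leading site was thus highest at 0 h and this one lowest, with overlapping intervals at both.

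Hoxb4, whose product expands blood stem cells when supplied in excess, kept all 4 of its regions in all 3 libraries, and all lay within the gene (chr11:96318267-96321638). The Hoxb3 span holds them too, with 13, 10 and 9 regions of any assignment in order of time. They were given to Hoxb4 because its span end lay nearer, so they cannot be ascribed to Hoxb4 alone. The first, 267 bp after the start printed earlier, stacked 48 (35.4 to 63.6), 30 (20.2 to 42.8) and 40 (28.6 to 54.5) fragments. The next 2 sites were lower at 72 h, with 10, 9 and 4 fragments at 96318844 and 16, 7 and 5 at 96319074. The last, at 96319939 to 96320290, stood at 12 (6.20 to 21), 16 (9.15 to 26) and 26 (17 to 38.1). Within 1 short gene, 2 neighbouring sites were thus lowest at 72 h and the next highest at 72 h.

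Hoxb2 and Hoxb1, the hindbrain genes at the anterior end, were nearly bare. Hoxb2 had a single region just before its span (chr11:96351632-96354020), of 8 fragments at 0 h and 8 at 6 h, and none at 72 h. The 0 h region met the limit for strong with the lowest height that did so. Hoxb1 (chr11:96365746-96368254) had a single region, 1.07 kb beyond its far end, of 4, 4 and 5 fragments. No region lay within 1 kb of either end of Hoxb1 in any library.

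**Figure D2:**
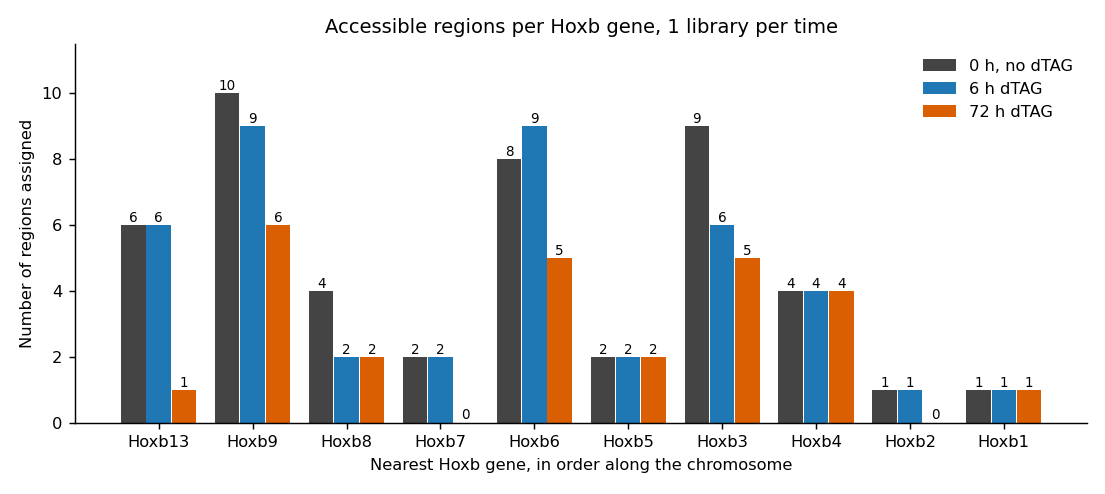
Number of regions assigned to each Hoxb gene (bars, 1 library each) at 0 h without dTAG and at 6 h and 72 h with dTAG, in chromosome order. Hoxb9, Hoxb6 and Hoxb3 had the most regions at 0 h (10, 8 and 9), Hoxb13 had 6, 6 and 1, and Hoxb7 and Hoxb2 had none at 72 h.

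Among the central genes, Hoxb5, Hoxb6 and Hoxb8 each kept a tall site through 72 h and Hoxb7 did not have one at any time. Hoxb5 (chr11:96303512-96306121), which marks long-term blood stem cells, had its main region just before the gene, with 37 (26.1 to 51.0), 26 (17 to 38.1) and 33 (22.7 to 46.3) fragments. A low site inside the gene, at 96304007 to 96304168, was not listed at 0 h and stood at 7 fragments at 6 h and 4 at 72 h. Hoxb6 (chr11:96292814-96301569) was nearest to 8, 9 and 5 regions. Its highest, 1782 bp into the span at 96294596 to 96294808, stacked 50 (37.1 to 65.9), 40 (28.6 to 54.5) and 29 (19.4 to 41.6) fragments. That site was highest at 0 h and lowest at 72 h, and the intervals of those libraries overlap. The lncRNA Hoxb5os (chr11:96291037-96306910) overlaps every region assigned to Hoxb6 or Hoxb5, so these sites cannot be ascribed to the coding genes alone.

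Other Hoxb6 sites differed in both directions. A region at the very start of the span, 96292830 to 96292975, stacked 10 fragments at 0 h and 10 at 6 h and was not listed at 72 h. One 303 bp before the span, with 3 fragments at 0 h and none listed at 6 h, stacked 13 (6.92 to 22.2) at 72 h, at 96292380 to 96292510. A broad low site at 96299143 to 96299479 stood at 9, 9 and 14 fragments. A low site 509 bp into the span was listed throughout, with 7, 6 and 8 fragments. The low-coordinate end of Hoxb6 thus had regions in every library, though not the same set.

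Hoxb8 (chr11:96279401-96285325) had 4 regions at 0 h and 2 at 6 h and 72 h. The pair that remained was the tall one. In another count, each region went to the nearest printed start of Hoxb8, Hoxb4 or Hoxb1 or the nearest span end of another member. Hoxb8 then had 1, 0 and 0 regions, Hoxb4 8, 7 and 7 and Hoxb3 5, 3 and 2. That rule treats the members unequally, because neither span end of Hoxb8 was used. The split between neighbours thus depends on the rule, and a count by both span ends of every member was not made. The site 358 to 364 bp before the span, between Hoxb9 and Hoxb8, stacked 45 (32.8 to 60.2), 34 (23.5 to 47.5) and 44 (32.0 to 59.1) fragments, and the one near the far end of the gene 21, 22 and 14. Hoxb7 (chr11:96285604-96290163), whose promoter is widely used to mark the ureteric bud of the kidney, had 2 regions at 0 h of 6 and 4 fragments, 2 at 6 h of 6 and 4, and none at 72 h. A region still lay within 1 kb of Hoxb7 at 72 h, the one counted for the far end of Hoxb8.

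The posterior genes held regions mainly between genes. Hoxb9 (chr11:96271330-96276595), active in the thoracic skeleton, was nearest to 10, 9 and 6 regions, of which 1, 1 and 0 lay in its span. The one in the span, 504 bp from the low end, stacked 8 fragments at 0 h (3.45 to 15.8) and 14 at 6 h (7.65 to 23.5) and was not listed at 72 h. The tallest, 9500 to 9524 bp before Hoxb9 in the lncRNA Gm53, at 96261640 to 96261806, stood at 28 (18.6 to 40.5), 38 (26.9 to 52.2) and 44 (32.0 to 59.1). A site further out, at 96235025 to 96235179 in no annotated gene, stood at 20, 22 and 17. Also in Gm53, a site at 96256210 to 96256300 stood at 4 and 12 fragments at 0 h and 6 h and was not listed at 72 h. The region inside Hoxb9 was thus absent from the 72 h list, while the tallest site before the gene had its highest value there.

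Hoxb13 (chr11:96194316-96196610), the most posterior member and a factor of hindgut and prostate, was nearest to 6, 6 and 1 regions, none inside its span. The region at its start stacked 3 fragments at 0 h and 4 at 6 h. The only site it kept, at 96223950 to 96224047 in no annotated gene, stood at 12 (6.20 to 21), 7 and 6 fragments. Of the 5 others at 0 h, 1 was strong, at 96206039 to 96206117 with 8 fragments, and it was the only strong Hoxb region of 0 h not overlapped at 6 h. All values at Hoxb13 were low, with no summit over 12 fragments.

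The 6 h comparison asked what 6 h of dTAG leaves of the 0 h sites. Most did recur: 32 of 47 Hoxb regions at 0 h were overlapped at 6 h, and every member had a region at both times. The 15 not overlapped (31.9%, exact 95% interval 19.1 to 47.1) compare with a background of 23.4% over all regions. Their median summit was 4 fragments and their highest 8, against a median of 8.5 in those overlapped. Among strong regions 1 of 19 was not overlapped, 5.26% (0.133 to 26) beside a background of 2.48%, and among weak ones 14 of 28, 50% (30.6 to 69.4) beside 48.1%. At each strength the Hoxb intervals thus included the share over the genome. In the other direction 9 of 42 regions at 6 h had no counterpart at 0 h, 21.4% beside a background of 21.8%. None of the 15 strong ones at 6 h was new (0%, up to 21.8%), beside 1.71%. Among weak regions 9 of 27 were new, beside 43.6%. These 9 had summits of 3 to 7 fragments and lay near Hoxb13 (3), Hoxb6 (3), Hoxb9, Hoxb7 and Hoxb5 (1 each).

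The 72 h comparison asked the same after 72 h. Of the 47 Hoxb regions at 0 h, 22 were overlapped and 25 were not (53.2%, 38.1 to 67.9), beside a background of 40.2%. Those not overlapped numbered 6 of 15 at the anterior genes Hoxb1 to Hoxb4, 9 of 16 at the central genes Hoxb5 to Hoxb8 and 10 of 16 at Hoxb9 and Hoxb13. In the same order 8, 6 and 5 of the 0 h regions were strong, so the 3 groups also differ in height. By gene, the regions not overlapped were 0 of 1 at Hoxb1, 1 of 1 at Hoxb2, 5 of 9 at Hoxb3 and 0 of 4 at Hoxb4. They were 1 of 2 at Hoxb5, 4 of 8 at Hoxb6, 2 of 2 at Hoxb7, 2 of 4 at Hoxb8, 5 of 10 at Hoxb9 and 5 of 6 at Hoxb13. Among strong regions 4 of 19 were not overlapped, 21.1% (6.05 to 45.6) beside 15.7%, and among weak ones 21 of 28, 75% (55.1 to 89.3) beside 68.9%. The 4 strong ones were those at Hoxb13, Hoxb9, Hoxb6 and Hoxb2 already described, of 8, 8, 10 and 8 fragments. All 4 therefore stood near the limit for strong at 0 h. None of the 13 strong regions at 72 h was new (0%, up to 24.7%), beside a background of 7.21%, and 4 of 26 regions of any strength were (15.4%, 4.36 to 34.9), beside 22.8%. All 4 were among the 13 weak ones, where the background is 40.1%. From 6 h to 72 h, 18 of 42 regions were not overlapped (42.9%, 27.7 to 59.0), beside 37.2%, with 3 of 15 strong ones beside 12% and 15 of 27 weak ones beside 64.6%. The 3 strong ones lay in Gm53, inside Hoxb9 and at the start of Hoxb6. Depth at 72 h was 0.870 times that at 0 h by background, and its part in these counts was not tested. With lists cut to equal length by −log10 q, 62.5% (43.7 to 78.9) of the Hoxb regions at 0 h were overlapped at 72 h, in place of 46.8% (32.1 to 61.9). The same cut gave 69.5% over all regions, in place of 59.8%.

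By gene ends the picture was similar. A region lay within 1 kb of an end of 8 of the 10 members at 0 h, 8 at 6 h and 6 at 72 h, beside 64.2%, 63.8% and 59.1% of all protein-coding genes. Hoxb2 and Hoxb13 had theirs at 0 h but not at 72 h, 2 of 10 members beside a background of 6.2%. Between 0 h and 6 h, 0 of 10 lost theirs, beside 2.56%. None of the 10 had one later but not at 0 h, beside 2.17% of all genes for 6 h and 1.18% for 72 h. Hoxb3 and Hoxb1 lacked one throughout, and every region of Hoxb3 lay more than 1 kb inside its span.

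Regions of the 3 lists that overlapped were joined into 58 Hoxb loci. Of these, 21 were listed in all 3 libraries (36.2%, beside 41.3% of 237542 loci in the genome), 11 at 0 h and 6 h only (19% beside 15.1%), and 14 at 0 h only (24.1% beside 15.1%). Another 2 were listed at 72 h only (3.45% beside 10.0%) and 7 at 6 h only (12.1% beside 12.2%). The 21 lasting loci comprised 9 at anterior, 6 at central and 6 at posterior genes. Their summit position differed from that at 0 h by a median of 23 bp at 6 h and 18 bp at 72 h, beside 16 and 19 bp over the genome. It lay within 50 bp in 17 of 21 loci at 6 h and 19 of 21 at 72 h, beside 88.9% and 85.4% over the genome, and at most 86 and 52 bp away. Since loci were joined by overlap of short regions, small differences follow in part from how they were built.

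**Figure D3:**
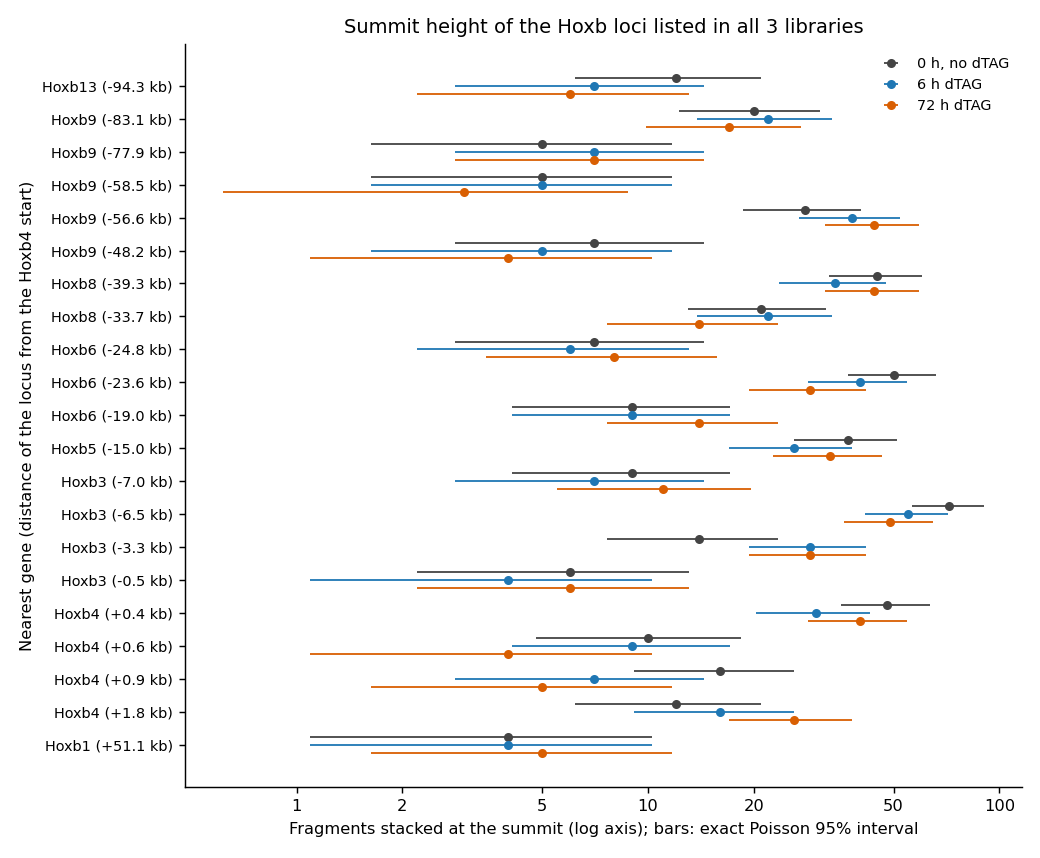
Fragments stacked at the summit (horizontal, log axis) of the 21 Hoxb loci listed in all 3 libraries, in chromosome order, with exact Poisson 95% intervals that cover counting error only. In all 21 loci the intervals of 6 h and of 72 h overlap that of 0 h, the tallest Hoxb3 locus is highest at 0 h (72 fragments) and the one after it is lowest at 0 h (14 fragments).

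To compare heights between libraries, the 21 lasting loci were ranked by fold, within each library, among the same 98083 loci listed in all 3. A rank of 100 is the highest. The median Hoxb ranks were 36.4, 22.2 and 42.7 in order of time, with the lowest and highest at 2.65 and 88.6, 2.01 and 81.7, and 0.947 and 77.1. The median change per locus was −7.09 points at 6 h and −5.70 at 72 h, so at 72 h it has the opposite sign to the difference of the medians. At 6 h the rank was lower than at 0 h in 16 of 21 loci (76.2%, 52.8 to 91.8), beside a background of 50%. It was higher in 5 (23.8%, 8.22 to 47.2), beside 50%. Both intervals leave out the background. They treat neighbouring loci of 1 window as independent and rest on 1 library per time, so they do not measure a difference between times. At 72 h the rank was lower in 12 (57.1%, 34.0 to 78.2), beside 52.8%, and higher in 9, beside 47.2%. By at least 10 points it was lower in 6 of 21 at 6 h, beside a background of 15.7%, and higher in 1, beside 15.5%. At 72 h it was at least 10 points lower in 7 of 21, beside 29.1%, and higher in 4, beside 27%. The 4 largest differences from 0 h to 72 h lay in and just before Hoxb4. The second Hoxb4 site went from rank 29.3 to 4.21, the third from 47.2 to 9.27 and the fourth from 36.4 to 61.5, while the second Hoxb3 site, just before Hoxb4, went from 42.2 to 64.5. In all 21 loci the counting intervals of 6 h and of 72 h overlapped that of 0 h.

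The other 3 Hox clusters, with the same window rule, were set beside Hoxb because they share its genes' descent and regulation. The Hoxa window held 15, 8 and 6 regions, the Hoxc window 30, 27 and 11 and the Hoxd window 13, 13 and 10. In regions per 100 kb at 0 h the Hoxa window stood at 12, the Hoxc window at 22.1 and the Hoxd window at 11.1, beside 24.2 for Hoxb. Numbers at 72 h came to 40%, 36.7% and 76.9% of those at 0 h, beside 55.3% for Hoxb and 79.6% for the whole list. Of strong 0 h regions, 5 of 6 Hoxa, 7 of 10 Hoxc and 7 of 9 Hoxd regions were overlapped at 72 h, beside 15 of 19 for Hoxb. Of weak ones the numbers were 1 of 9, 2 of 20 and 1 of 4, beside 7 of 28. The 4 clusters were not tested against each other, and the intervals of their shares overlap. Genes that had an end region at 0 h but not at 6 h were Hoxa3, Hoxa7 and Hoxa9 of 11 Hoxa genes, Hoxc8 and Hoxc11 of 9 Hoxc genes, Hoxd13 of 9 Hoxd genes and 0 of 10 Hoxb genes, beside 2.56% of all protein-coding genes.

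**Figure D4:**
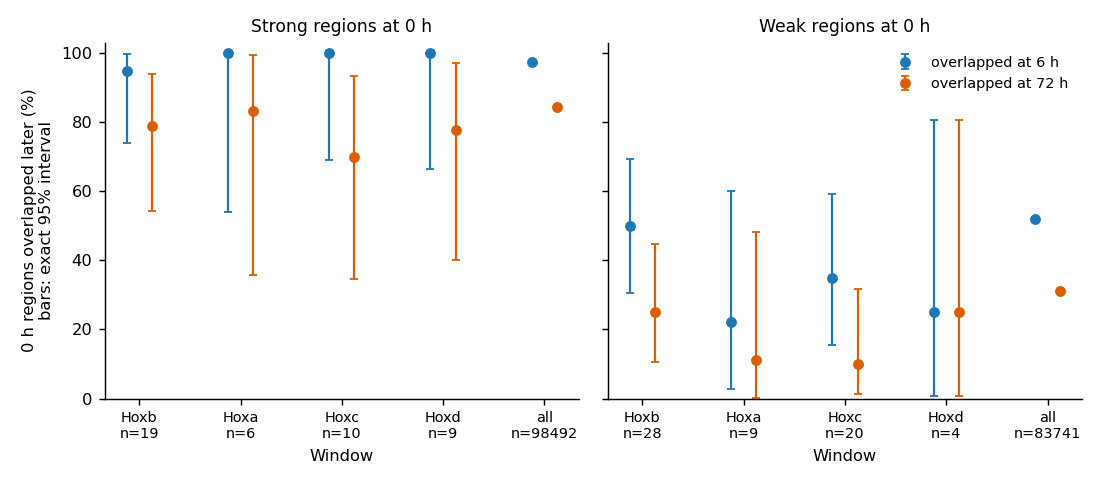
Share of 0 h regions overlapped at 6 h (blue) and at 72 h (orange), in percent with exact 95% intervals, for strong (left) and weak (right) regions of the 4 Hox windows and of the whole list, 1 library per time. For Hoxb 94.7% and 78.9% of strong and 50% and 25% of weak regions were overlapped, and the Hoxb intervals include the values of the whole list.

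Genes that act with Hox proteins or on Hox clusters were read from lists, by whether a region lay within 1 kb of a gene end. Of 9 TALE homeobox genes, the DNA-binding partners of Hox proteins, 8, 9 and 7 had one in order of time. Meis1 had one at 6 h only and its locus held 3, 6 and 1 regions, and Meis3 had one at 0 h and 6 h but not at 72 h. Of 19 Polycomb genes, which keep Hox clusters silent, 19, 18 and 17 had an end region. Phc2, a Polycomb complex subunit, lacked one at 6 h and 72 h and Cbx7, a reader of the Polycomb mark, at 72 h. Of 15 trithorax genes and MLL partners, which keep Hox genes active, 15, 14 and 14 had one, Kdm6a, a demethylase of the Polycomb mark, being the one without. Of 14 genes of cohesin and CTCF, 10 had one in each library. Across the 4 lists, Meis3, Phc2, Cbx7 and Kdm6a were the members whose end region of 0 h had no successor at 72 h. These are 1 of 9 TALE, 2 of 19 Polycomb, 1 of 15 trithorax and 0 of 14 cohesin and CTCF genes. Over all protein-coding genes 6.2% had one at 0 h and none at 72 h. The shares of all genes with an end region were 64.2%, 63.8% and 59.1% in order of time. Whether the lists differ from other genes was not tested.

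The genes most like the tallest Hoxb site were sought by the highest region within 10 kb of each protein-coding gene, ranked by fold in each library among 17174 genes with a region in all 3. Hoxb3 stood at ranks of 39.5, 27.7 and 26.7, so even the tallest Hoxb site lay below the median of these 17174 genes. Genes without a region in some library are not in this ranking, so it gives no place among all protein-coding genes. The 5 genes outside the Hox clusters with the smallest summed difference in rank over the 3 libraries were Art4 (3.10 points), Arhgef33 (3.21), Rph3a (4.15), Ripk3 (4.16) and Il20ra (4.23). Art4, for example, had folds of 55.2, 42.2 and 32.8, beside 55.2, 42.2 and 39.0 for Hoxb3. Likeness over 3 libraries is a description of those values alone.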

How the data were processed

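ATAC-seq regions of 3 libraries of a mouse myeloid progenitor line were read from 1 deposited peak list per library. The submitters' processing notes list, on mm10, the aligner BWA 0.7.17, the peak caller MACS2 2.2.7, quality reports by FastQC 0.11.8 and MultiQC 1.10.1, bedtools 2.30.0, and HOMER, limma, edgeR and ChIPseeker without versions. For options, duplicates and any shift of read ends, the sources used here give nothing. The authors deposited for each region a fold (ratio of summit to background, each with 1 added) and a −log10 p-value and −log10 q-value. These are the authors' own values.

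From these, positions were made 1-based, and regions sharing at least 1 bp were matched. Every fold lay on an even grid (tolerance 0.01 of a step), and the deposited −log10 p equalled the Poisson tail of the recovered summit count to within 0.000505, in each list. Read totals were not used here, and the background per library stood for depth. Duplicate reads may be in the summit counts, so exact Poisson and Clopper-Pearson 95% intervals cover counting error only. A region within several spans went to the gene with the nearest span end. Gene spans came from RefSeq for GRCm38.p6, without strand and with predicted transcripts. The gene list and motif searches used symbols of the same source, all of which matched.

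All 10 members are named, with the 5 highest regions per library, strong regions lost or gained and the highest region of each member, and other regions were added after their values were seen. From the lists of regulators, genes were named where an end region was in one list and not in another, at most 4 per list. Members, lists and tests were chosen with earlier results of these data known. Alternatives were thresholds, list length, window width, merging, overlap and gene assignment. Python 3.11.15, pandas 2.3.3, scipy 1.17.1 and matplotlib 3.10.9 were used, and the overlap functions were tested on simulated data. Sequences of the regions themselves are not shown.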

Additional observations from a re-analysis of the deposited data

How the results depend on the processing

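Thresholds decided the size of the counts. With a −log10 q of at least 10 the Hoxb window held 14, 13 and 13 regions at 0 h, 6 h and 72 h, and with a fold of at least 10 it held 10, 11 and 12. These thresholds leave out low regions by construction, and the number at 72 h was then close to that at 0 h. Lists of equal length gave 32, 35 and 26. Base pairs covered in order of time were 2930, 2620 and 2619 with the first threshold. With the second they were 2226, 2392 and 2495, so the order of 0 h and 72 h is the reverse of that without a threshold. That order rests on the exact limit. The background was lower at 72 h, so the same fold needs fewer fragments there. At 0 h, sites of 98 and 352 bp with 12 fragments fell just short of it, at a fold of 9.83. Under the −log10 q limit, 100% of the Hoxb regions at 0 h recurred at 6 h and 92.9% at 72 h, beside 99.2% and 89.5% of all regions. In lists of equal length 62.5% did at 72 h, beside 69.5% of all regions. That limit left 0 strong regions without overlap at 6 h and 1 at 72 h, and the fold limit 0 at either time. With the −log10 q limit 6 members had a region at 6 h. Region counts stayed within 1.5 times with 0 kb or 50 kb on each side or with regions closer than 150 bp merged, and covered base pairs with either width. An overlap of at least 50% left the shares within their intervals and the strong regions without overlap at 1 and 5. For single genes, 25 of 30 counts moved with the −log10 q limit. With assignment by printed start for Hoxb8, Hoxb4 and Hoxb1 and by span end for the others, 11 of 30 moved. No paired analysis was possible because each group holds 1 library, and for the same reason none could be left out. Low summits limit what single sites can show.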
